A study of Mus musculus with 4 samples.

Results

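The 30 genes described here make, sense, move and store sterols in mouse Th17 cells, CD4 helper T cells known for making IL-17. They were picked by name from a deposited table of 55450 genes, and each name matched exactly 1 row. The genes fall into 4 roles: 8 genes of the mevalonate steps, 11 of the squalene and post-squalene steps, 6 regulators, and 5 genes of transport, efflux, storage and oxysterol production. No receptor for sterol uptake is among the 30 genes. RNA sequencing compared cultures transduced with retrovirus that carried a guide for Adarb1 (sgAdarb1) with cultures given the PSIN vector without a guide (empty vector). Adarb1 encodes ADAR2, which turns adenosine into inosine in double-stranded RNA.

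Each group had 2 cultures, and all 4 carried a Cas9 transgene whose promoter the labels do not name. The mice were 8 to 12 weeks old, and their naive CD4 T cells received anti-CD3 (0.25 µg/mL) with anti-CD28 (1 µg/mL), then virus after 24 h. Polarization with TGF-β (0.3 ng/mL) and IL-6 (20 ng/mL) lasted 72 h. Per the series' design text, 2 mice called wild type each gave a culture of either kind, while the genotype tag of all 4 samples names the Cas9 transgene, and the sources used here do not settle this difference. The control vector holds no guide, so effects of Cas9 cutting in general cannot be told apart from effects at Adarb1. The titles were used to name the groups, and the treatment tag goes against the title in 2 of the 4 samples. If the authors grouped by that tag, the fold changes compare the second replicate with the first. The table gives 1 fold change per gene and does not name its numerator. Positive values are read here as higher in sgAdarb1, after the order of the design text, and every sign would turn with the other order.

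Sterol synthesis starts from acetyl-CoA, which the mevalonate steps turn into isoprenoid units and farnesyl diphosphate. Squalene synthase joins farnesyl units into squalene, and the post-squalene steps oxidize, cyclize and trim it into cholesterol. SREBP transcription factors switch on these genes when membrane sterol is low, after SCAP carries them out of the endoplasmic reticulum, and INSIG proteins hold SCAP back when sterol is high. Liver X receptors (LXR) answer to oxysterols and switch on efflux. Activated T cells need sterol for new membrane as they divide, and sterol intermediates are known to affect Th17 differentiation.

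Promoters of 4 members, from the mevalonate, post-squalene and efflux genes, are shown because they differ in the letters known from SREBP-driven promoters. The windows run from 250 bases before to 50 after a RefSeq transcription start (GRCm38.p6), 5′ to 3′ on the gene's strand. Capitals mark CCAAT, the NF-Y box that works beside SREBP, on either strand (ATTGG when reversed), and the sterol element core TCACNCCAC. Hmgcs1 (chr13:119690101-119690400, plus strand) was the single member, of those with a window, that held the sterol element core, Mvk (chr5:114444019-114444318, plus strand) had the most CCAAT boxes, Msmo1 (chr8:64733529-64733828, minus strand) had the smallest p among the members, and Abca1 (chr4:53159846-53160145, minus strand) is an LXR-driven efflux gene.
Hmgcs1: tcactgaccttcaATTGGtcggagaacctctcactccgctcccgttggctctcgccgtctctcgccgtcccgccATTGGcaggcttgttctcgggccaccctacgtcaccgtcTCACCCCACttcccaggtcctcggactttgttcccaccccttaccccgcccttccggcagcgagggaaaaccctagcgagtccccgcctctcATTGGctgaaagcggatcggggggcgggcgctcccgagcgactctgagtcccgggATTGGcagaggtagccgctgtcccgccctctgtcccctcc
Mvk: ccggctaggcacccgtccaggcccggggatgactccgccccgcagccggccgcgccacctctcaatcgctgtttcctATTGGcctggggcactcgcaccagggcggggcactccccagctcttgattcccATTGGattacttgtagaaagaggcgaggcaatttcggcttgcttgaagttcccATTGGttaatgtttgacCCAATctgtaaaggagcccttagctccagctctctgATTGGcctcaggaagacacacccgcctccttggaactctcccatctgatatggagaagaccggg
Msmo1: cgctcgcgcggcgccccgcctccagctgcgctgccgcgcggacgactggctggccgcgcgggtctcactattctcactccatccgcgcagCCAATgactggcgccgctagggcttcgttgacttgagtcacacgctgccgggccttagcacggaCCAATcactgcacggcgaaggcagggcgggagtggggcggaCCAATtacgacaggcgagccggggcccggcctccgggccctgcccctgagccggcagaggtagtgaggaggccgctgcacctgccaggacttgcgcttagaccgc
Abca1: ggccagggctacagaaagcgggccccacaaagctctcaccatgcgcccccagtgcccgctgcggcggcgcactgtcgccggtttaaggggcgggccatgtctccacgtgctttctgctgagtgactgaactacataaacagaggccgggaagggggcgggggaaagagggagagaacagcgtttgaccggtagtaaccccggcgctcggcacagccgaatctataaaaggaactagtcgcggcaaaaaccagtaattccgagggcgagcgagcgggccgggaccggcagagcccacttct
Positions count the start as base 1 and the base before it as -1, and give the first base of a match. In the Hmgcs1 window the sterol element core began at base -137 from the start, between CCAAT boxes at -176 and -45. Mvk had 5 CCAAT boxes, at -173, -120, -67, -50 and -14, and Msmo1 had 3, at -160, -96 and -55. The Abca1 window held neither set of letters, and variants of them were not searched for. No capitalised match overlapped another in these windows.

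RefSeq windows were matched for 25 of the 30 members, and 20 of the 25 (80.0%) held CCAAT in at least 1 window, against 41.1% of 27025 genes. Those 27025 genes were not matched to the members in level or in number of windows. By role, the box was found for 9 of 9 squalene and post-squalene genes, 6 of 7 mevalonate genes, 4 of 6 regulators and 1 of 3 genes of the transport group. The sterol element core was found for 1 of 25 members, against 1.44% of all genes, and the E-box CACGTG for 6 of 25, against 8.09%. The LXR repeat, AGGTCA followed by any 4 bases and AGGTCA again, searched on both strands, was found for 0 of 25 members and in 5 of 32851 windows. A match describes letters and is not a measured binding site. Only these exact letters inside these windows were searched. Variants of them and sites elsewhere would be missed, so a missing match does not show that a gene lacks such a site. Abcg1, Fdft1, Fdps, Sqle and Stard4 had no window matched.

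The comparison asked whether sterol genes differ in RNA level between sgAdarb1 cultures and empty vector cultures of the same mice. No member passed the deposited test: of the 29 members with a fold change, 0 had an adjusted p below 0.05 (DESeq2, authors' deposited table), against 0 of 29383 genes in all (0%). At an unadjusted p below 0.05 there were 0 of 29 members, against 61 of 29383 genes (0.208%). The estimates were small and mostly positive. The log2 fold change was positive for 26 of 29 members in the authors' deposited table, with a median of 0.07, while 50.5% of the 14547 genes with a mean normalized count of at least 10 were positive, with a median of 0.00. Every one of the 29 intervals at the 95% level spanned 0, and each lay inside -1 to 1 on the log2 scale, so a doubling or halving lay outside all of them. Of genes with means in the range of the members, 51.5% were positive. Intervals inside -1 to 1 were common to 98.3% of the 8812 genes with means in the range of the members. The deposited errors were wide beside the scatter of the estimates: the SD of the Wald statistic was 0.585 for all genes whose mean reached 10 and 0.490 for the members, where errors that match the scatter of unchanged genes would give 1. The members were chosen with these values known, so the count of positive signs describes them and is no test.

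**Figure D1:**
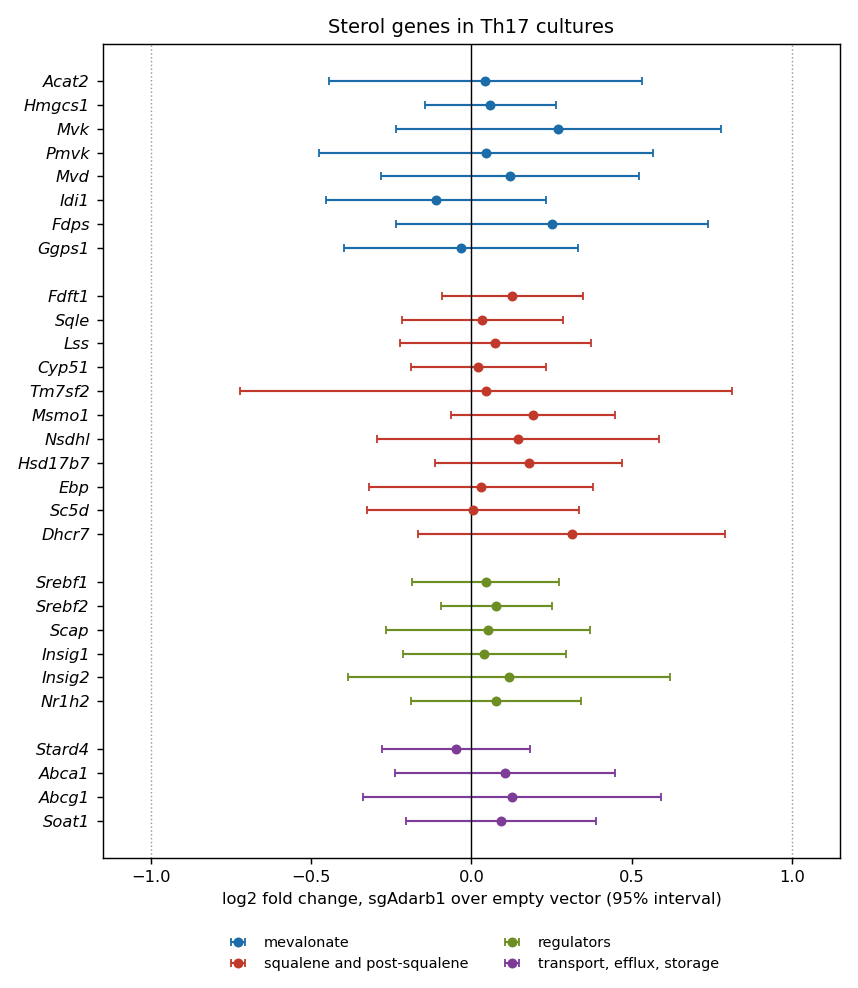
Log2 fold change of each of the 29 members with a fold change, sgAdarb1 over empty vector, with bars for the 95% interval computed from the deposited standard error and dotted lines at -1 and 1. All 29 bars cross 0 and stay inside the dotted lines, and 26 points lie to the right of 0.

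Adarb1 itself, on chromosome 10, stood at 0.11 ± 0.12 on the log2 scale (SE here and below, 2 cultures per group) in the authors' deposited table, beside a mean normalized count of 2130. A cut by Cas9 need not change the amount of an mRNA, so this value does not check the labels. T cell genes were abundant, with Cd4 at a mean of 15286 and Cd3e at 5150 in the authors' deposited table, and the Th17 genes Il17a, Il17f and Il23r were all present. Il17a, the signature cytokine gene, had the largest Wald statistic of any gene, on the positive side. In bulk RNA, fewer cells of a type and less RNA per cell cannot be told apart.

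The mevalonate genes were split, 6 positive and 2 negative, with a median log2 fold change of 0.05. Hmgcs1 (chromosome 13, 119690379 to 119708260, mm10), which makes HMG-CoA, had the highest level of this role at 707 mean normalized counts per kb of exon. Its estimate was 0.06 ± 0.10 in the authors' deposited table, with an interval from -0.15 to 0.26. Acat2 encodes the cytosolic thiolase that feeds it, and stood at 0.04 ± 0.25 in the authors' deposited table.

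The kinases and the decarboxylase that follow had wide intervals. Mvk, mevalonate kinase (chromosome 5, 114444269 to 114460591), had the largest estimate of the role at 0.27 ± 0.26 in the authors' deposited table, where its mean was 295. That is an estimated 1.21-fold difference with an interval from -0.23 to 0.78 on the log2 scale. Pmvk, phosphomevalonate kinase, was at 0.04 ± 0.27 and Mvd, the decarboxylase, at 0.12 ± 0.21 in the authors' deposited table. These genes had means of only 279 to 493, and none of their intervals excluded 0.

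Around the isoprenoid branch point the signs differed. Idi1, the isomerase that readies isoprenoid units for joining, was at -0.11 ± 0.17 in the authors' deposited table, the lowest value among the 29 members. Fdps, which makes farnesyl diphosphate, stood at 0.25 ± 0.25 in the authors' deposited table, and shares 1124 exon bases with the predicted gene Gm43738 on the same strand, whose mean was 0.967. Ggps1, which draws farnesyl units off towards protein prenylation, was at -0.03 ± 0.19 in the authors' deposited table. These 3 intervals overlapped one another, and the differences between the genes were not tested. Ggps1 shares 257 exon bases with Arid4b on the opposite strand, which had a mean of 1830 against 615 for Ggps1 in the authors' deposited table. Whether counting used strand is not stated in the labels or files.

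All 11 squalene and post-squalene genes had positive estimates, from 0.01 to 0.31, with a median of 0.07. Fdft1, squalene synthase, stood at 0.13 ± 0.11 in the authors' deposited table, but it shares 774 exon bases with Ctsb, a lysosomal protease gene on the opposite strand. Ctsb was at 0.12 ± 0.10 with a mean of 3547, against 2519 for Fdft1 in the authors' deposited table. Sqle, squalene epoxidase and a rate-controlling enzyme, lay at 0.03 ± 0.13, and Lss, the cyclase that makes lanosterol, at 0.07 ± 0.15 in the authors' deposited table. Cyp51 removes a methyl group from lanosterol and was at 0.02 ± 0.11 in the authors' deposited table, with an interval from -0.19 to 0.23, the narrowest of this role. It shares 166 exon bases with Akap9 on the opposite strand, which the authors' deposited table gives at -0.24 ± 0.11. Reads in shared exon bases could belong to either gene.

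Among the enzymes that strip the remaining methyl groups, Msmo1 had the estimate that was largest relative to its error of all members. Msmo1 (chromosome 8, 64718139 to 64733792), the methyl oxidase, stood at 0.19 ± 0.13 in the authors' deposited table and had the smallest unadjusted p of any member, 0.141. The next-smallest unadjusted p-values were 0.201 for Dhcr7 and 0.230 for Hsd17b7 in the authors' deposited table. Hsd17b7, the ketosteroid reductase of the same demethylation, was at 0.18 ± 0.15 and Nsdhl, its dehydrogenase, at 0.15 ± 0.22 in the authors' deposited table. Tm7sf2, a sterol reductase, had the lowest mean, 126, and the widest interval, from -0.72 to 0.81, around 0.05 in the authors' deposited table. Its exons share 532 bases with Vps51 on the same strand, whose mean was 349.

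The last steps had estimates that spread widely, with overlapping intervals. Dhcr7 (chromosome 7, 143823145 to 143848410), the reductase that completes cholesterol, had the largest estimate of all 29 members at 0.31 ± 0.24, a 1.24-fold difference, in the authors' deposited table, where its mean was 343. The interval ran from -0.17 to 0.79. Sc5d, the desaturase one step earlier, stood at 0.01 ± 0.17 and Ebp, the sterol isomerase, at 0.03 ± 0.18 in the authors' deposited table. Values near 0 and the largest value of the set lay in neighbouring steps of the same branch.

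The 6 regulators had a narrow range of estimates, from 0.04 to 0.12, all positive, with a median of 0.06. Srebf2, which encodes the SREBP that chiefly drives sterol synthesis (chromosome 15, 82147181 to 82205379), had the highest level of all members at 991 mean normalized counts per kb and the smallest error. It stood at 0.08 ± 0.09 in the authors' deposited table, with an interval from -0.10 to 0.25. Srebf1, whose products lean to fatty acid genes, was at 0.04 ± 0.12 in the authors' deposited table and shares 109 exon bases with Rai1 on the opposite strand. Scap, the escort protein gene, stood at 0.05 ± 0.16 in the authors' deposited table.

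The retention genes had the lowest and the highest estimate of this role, with overlapping intervals. Insig1, itself a sterol-repressed SREBP target, was at 0.04 ± 0.13 with an interval from -0.21 to 0.30, and Insig2 at 0.12 ± 0.26 in the authors' deposited table. Insig1 had 508 mean normalized counts per kb and Insig2 had 87.2. Nr1h2 encodes LXRβ, the widely expressed liver X receptor, and stood at 0.08 ± 0.13 in the authors' deposited table. A linear trend of the estimates with GC content and length, fitted over all genes whose mean reached 10, moved this role most: without it Srebf1 was at -0.01 and Scap and Nr1h2 at -0.00, the median was 0.02 and 3 of 6 were positive.

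Of the 4 measured genes that move, export or store sterol 3 were positive and 1 negative, with a median of 0.10. Abca1 (chromosome 4, 53030787 to 53159895), which loads cholesterol onto apolipoproteins, was at 0.11 ± 0.17 and Abcg1, which exports it to lipoprotein particles, at 0.13 ± 0.24 in the authors' deposited table. Soat1, which esterifies cholesterol for storage, stood at 0.09 ± 0.15, while Stard4, a sterol carrier and SREBP target, was at -0.05 ± 0.12 in the authors' deposited table. Stard4 had the highest level of the role at 387 mean normalized counts per kb, against 53.0 to 105 for the other three. Ch25h, which makes an oxysterol that blocks SREBP processing, is listed at 0 in the authors' deposited table and has no fold change.

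Macrophages also express Abca1, Abcg1 and Soat1. Of 14 myeloid and dendritic cell markers, 11 had a fold change and 10 of those were positive (8 of the 9 with a mean of at least 10), and their median over the authors' deposited table was 0.84 on the log2 scale. Their means were low and summed to 383, and Cd209a, Clec9a and Marco are listed at 0. The part of these cells in the 3 estimates was not tested.

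The level of the members varied far more between genes than their fold changes did. Per kb of exon, the 29 measured members ranged from 28.6 mean normalized counts for Tm7sf2 to 991 for Srebf2, with a median of 163, against 74.6 for all genes with a mean of at least 10. Srebf2, Hmgcs1, Cyp51, Fdft1 and Insig1 were the 5 highest, from 991 to 508. Hmgcs1 at 707 and Cyp51 at 704 stood side by side in that order. The lowest were Tm7sf2, Abcg1, Dhcr7, Fdps and Abca1, from 28.6 to 81.7. In all, the members took 0.214% of the summed mean normalized counts. The spread of these levels over samples was not analysed here, so neighbours in this order cannot be separated.

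**Figure D2:**
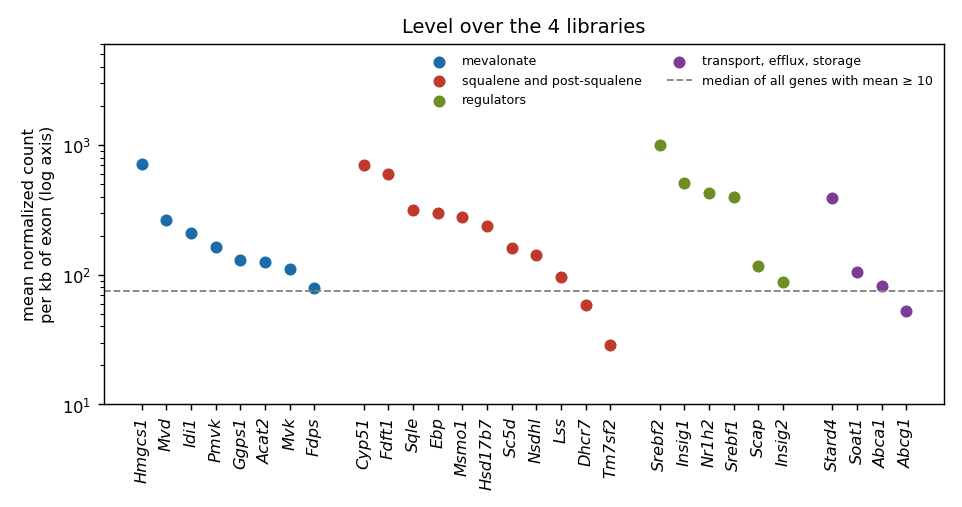
Mean normalized count per kb of merged exon for the 29 measured members, sorted within each role, on a log axis, with a dashed line at the median of all genes with a mean of at least 10. Srebf2 (991) is highest and Tm7sf2 (28.6) lowest, and the dashed line lies at 74.6.

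The error of each fold change followed the level. The standard errors of the members ran from 0.09 for Srebf2 to 0.39 for Tm7sf2, and relative to the 200 genes of nearest mean they were 0.977 to 1.06 times the typical value. The members with the largest estimates were among the less precise: Dhcr7, Mvk and Fdps all had means below 500. The 13 members with a mean of at least 1000 had estimates from -0.05 to 0.19 with a median of 0.07, and 12 of them were positive, against 49.2% of 3664 genes at that level. The 10 members with means below 500 had a median of 0.12 and were all positive, against 54.1% of 3783 genes with means from 100 to 500.

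**Figure D3:**
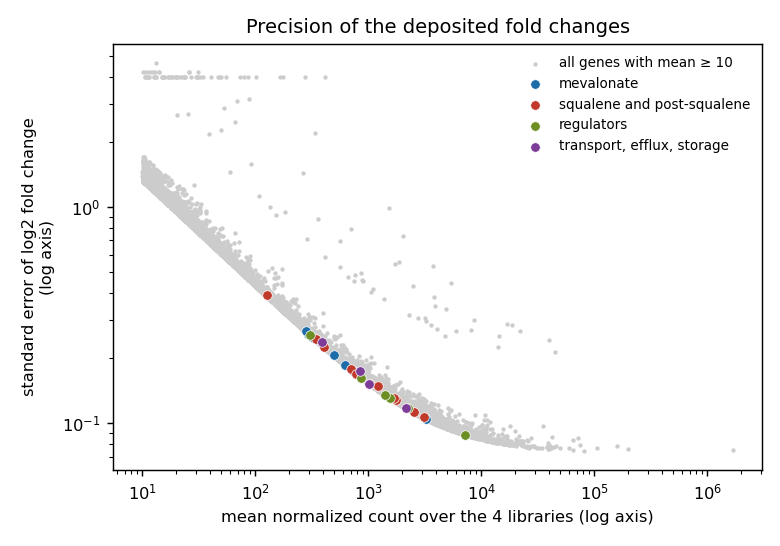
Standard error of the log2 fold change against the mean normalized count over the 4 libraries, both on log axes, for all genes with a mean of at least 10 (grey) and the members (coloured by role). The members lie along the band of all genes, from 0.39 for Tm7sf2 to 0.09 for Srebf2.

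Weighted by the inverse square of their errors, the 29 members averaged 0.07 on the log2 scale, and all 29 intervals held that value. By role the weighted means were 0.06 for mevalonate, 0.10 for squalene and post-squalene, 0.06 for regulators and 0.04 for transport, efflux and storage. The last role had the highest median of the 4, 0.10, but the lowest weighted mean, since Stard4, the one negative gene, had its smallest error. The ranges of the 4 roles overlapped, and no difference between roles was tested. Of the 29 estimates, 14 lay above the upper quartile (0.07) and 1 below the lower quartile (-0.07) of the 8812 genes with means in the members' range.

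Other genes of lipid metabolism, taken from lists written by name, were read in the same way. Of 16 other genes of sterol and isoprenoid synthesis 7 were positive and 9 negative, with a median log2 fold change of -0.03. None passed the test. The smallest unadjusted p was that of Pggt1b, a subunit of a protein prenyltransferase, at -0.19 ± 0.15 in the authors' deposited table, followed by Rabggta, a Rab prenyltransferase subunit, at 0.23 ± 0.28. Lbr, the lamin B receptor, which also has sterol reductase activity, was at -0.09 ± 0.11 in the authors' deposited table. Of 36 listed names for sterol uptake, trafficking and efflux by other routes, 33 had a fold change and 30 a mean of at least 10, 16 positive and 14 negative, with a median of 0.01, and none passed. Npc2, a lysosomal sterol carrier, lay at 0.15 ± 0.11, Soat2, the second esterifying enzyme, at -0.51 ± 0.46, and Lpcat3, an LXR target that remodels phospholipids, at 0.16 ± 0.17 in the authors' deposited table. A test of these lists against the members was not made.

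**Figure D4:**
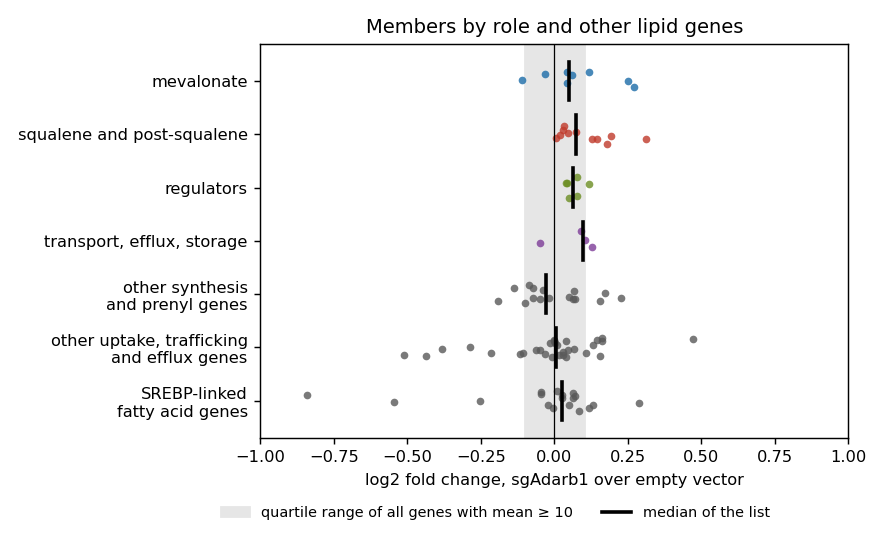
Log2 fold change, sgAdarb1 over empty vector, of genes with a mean of at least 10 in the 4 roles and in 3 lists of other lipid genes, with a black bar at each median and a grey band between the lower and upper quartiles of all such genes (-0.10 to 0.10). The medians of the 4 roles lie between 0.05 and 0.10 and those of the other lists between -0.03 and 0.03.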

How the data were processed

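The deposited table holds 1 comparison. Per the submitters' processing notes, reads were handled with STAR 2.6.1a, featureCounts and DESeq2 1.18.1 on mm10. The sources used here do not give the annotation, strand setting or model formula. Per the file headers, the authors deposited for each gene a mean signal over libraries (the mean normalized count), a log2 fold change, its standard error and the Wald score, and a p-value with its adjustment. The score equalled the fold change over its error, and the adjusted p a Benjamini-Hochberg adjustment over 29383 genes. The other 26067 genes had a mean of 0. The table's 4 columns of values per library match no sample label and were not used, so values and depths per culture were not analysed here and no model was refitted. The p-values set the difference between the groups against an error modelled from the 4 cultures. Without the formula, whether differences between the mice are part of that error is not known.

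Symbols, positions and exon lengths came from GENCODE mouse release M21, which matched 100% of the identifiers, and promoters from RefSeq. Intervals at the 95% level used the normal quantile. The GC and length trend was linear and weighted by inverse squared error, and was tested on simulated data. Python 3.11.15, pandas 2.3.3, numpy 2.4.6 and scipy 1.17.1 were used. All members were named. Of each other pathway list the 3 genes of smallest p were named. Marker genes, the prenyltransferase subunits and genes that share exons with a member were named after their values were seen. Members, lists and printed promoters were chosen with earlier results of these data known.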

Additional observations from a re-analysis of the deposited data

How the results depend on the processing

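No paired analysis was possible because no column of single-library values could be matched to a sample. An edgeR refit, other size factors and omission of a culture were therefore not run. The count of members past the threshold stayed at 0 at an adjusted p of 0.1, and when the adjustment covered only the 14547 genes whose mean reached 10 or the 10680 whose mean reached 50 (smallest adjusted p of a member 1.00). Genes outside the members did pass at 0.1, among them Il17a and Cpa3. Both had an adjusted p of 0.0709 (DESeq2, authors' deposited table), the smallest of any gene. How many of all genes passed at these settings was not counted. The count of positive members, 26, was also 26 after the median of all genes was subtracted, and 23 once the trend with GC content and length was taken out. Under that trend 5 members changed sign without a call: Pmvk (-0.02), Srebf1 (-0.01), Scap (-0.00) and Nr1h2 (-0.00) became negative and Ggps1 (0.02) positive. The largest shift was 0.08. All 29 members have a mean of at least 50, so that limit changed nothing. The median of all 29 was 0.05 without the trend, against 0.07 as deposited. Role medians and weighted means were positive under each setting run, but for transport, efflux and storage the median of 0.10 became 0.13 without the trend and a weighted mean of 0.04, so the order of the roles depends on the setting. The deposited errors limit what was detectable: at an unadjusted 5% level a member needed a log2 fold change of 0.17 (Srebf2) to 0.77 (Tm7sf2), with a median of 0.33. Since Wald statistics had an SD of 0.585 among genes whose mean reached 10, these limits and the intervals are wider than the scatter between genes.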

Other observations

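A list of SREBP-linked genes, mostly of fatty acid metabolism, had estimates of both signs. Of 19 listed genes, 18 had a mean of at least 10, 11 positive and 7 negative, with a median log2 fold change of 0.03, and none passed the deposited test. The smallest unadjusted p-values were those of Mid1ip1, a regulator of acetyl-CoA carboxylase, at 0.29 ± 0.19, Elovl6, a fatty acid elongase, at -0.25 ± 0.17, and Scd1, a desaturase, at 0.12 ± 0.10 in the authors' deposited table. Without the trend in GC content and length the median was -0.00.

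Within the other synthesis list, the 10 genes that use isoprenoids for ubiquinone, dolichol or protein prenylation were 3 positive and 7 negative, with a median of -0.04. The 5 protein prenyltransferase subunits, Fnta, Fntb, Pggt1b, Rabggta and Rabggtb, were 1 positive and 4 negative (median -0.05, and -0.06 with the trend removed), and none passed. These subsets were drawn after the values were seen. Mast cell and basophil markers were negative in 7 of 8, but 3 of them reached a mean of at least 10, of which 2 were negative and Kit was positive. Cpa3 was the lowest, at -5.66 ± 1.26 in the authors' deposited table, where its mean was 28.7. Markers of B cells were 3 positive and 5 negative, CD8 T and NK cell markers 2 positive and 5 negative, and erythroid markers 1 positive and 3 negative of the 4 with a fold change, 1 of which reached a mean of at least 10. For CD8 T and NK cells 5 markers reached it. T cell and Th17 markers were 12 positive and 2 negative, with a median of 0.07.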
